A study of Nicotiana tabacum with 8 samples.

Results

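In the leaves of 2 tobacco cultivars, 129 of 135146 assembled unigenes were well expressed and kept nearly the same level in every library, whether the plants had been chilled or not. A unigene is here a gene-like unit built from overlapping RNA-seq reads without a genome, and its ID names the assembly component (c86138) and the unit within it (g3). They were chosen by their measured levels: a unigene was taken if its deposited log2 value was at least 5 in all 8 libraries and its highest and lowest values differed by at most 0.5. A log2 value of 5 corresponds to an abundance of 31, since the values are log2(abundance + 1). The floor was met by 1199 unigenes, and 129 of these (10.8%) also stayed inside the range limit. They are called stable unigenes below, which means only that they met this rule on the deposited values. Both limits were applied to the same 8 libraries, so the levels, ranges and cold differences of these unigenes are given as descriptions without a test.

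The libraries were made from leaves of young plants of CB-1 and K326, tobacco (Nicotiana tabacum) cultivars compared for their response to cold. CB-1 plants kept at 4 °C for 1 day form the group CT and CB-1 plants kept under normal growth conditions the group CC. K326 plants kept at 4 °C for 1 day form the group KT and untreated K326 plants the group KC, with 2 libraries in each of the 4 groups. Leaves of several plants were pooled for each library, so differences between single plants are not visible, and p-values measure only the spread between such pools.

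Chilling changes the activity of a large share of plant genes, among them those that adjust membranes, sugars and protective proteins. Other transcripts, often those of basic cell functions such as protein synthesis, the cytoskeleton or protein turnover, are commonly found at a similar level in treated and untreated tissue. Such transcripts serve as reference genes in quantitative PCR, where a target is expressed relative to a gene taken to be constant. Whether a gene looks constant depends on how the libraries are made comparable, because a level in RNA-seq is always a level relative to the rest of the library.

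None of the 129 stable unigenes could be given a gene name. Of 63 unigenes that the study names, mostly cold-response and transcription factor genes, 0 had a value of at least 5 in all 8 libraries and 0 had a range of 0.5 or less. The closest was c85784_g1, named HOS1, which in Arabidopsis is a ubiquitin ligase that acts on a cold-response regulator. It had log2 values of 2.35 and 2.63 in CT, 2.30 and 2.04 in CC, 2.22 and 2.48 in KT, and 2.29 and 2.29 in KC, a range of 0.59 at a level far under the floor. Next came c73381_g1, named COR413 after a family of cold-regulated membrane proteins, with values from 4.93 to 5.76 and a range of 0.82. A further 360 unigenes had a protein description in a shortened annotation sheet. Of these, 5 reached 5 in all 8 libraries, with ranges from 2.45 for c21179_g1 (Kirola) to 4.47 for c63046_g1 (Snakin-2), and 0 were stable. No stable unigene shared an assembly component with an annotated one, and 0 unigene IDs matched the RefSeq gene table of tobacco. The leaf identity of the samples could likewise not be checked on marker genes by ID.

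The 8 libraries had between 41878 and 51331 unigenes above 0, and their linear abundances summed to between 409394 and 469248. The stable unigenes made up between 2.97% (CC2) and 3.52% (CT2) of that sum. The file holds no read counts, so the depth behind a value is unknown. Control libraries did not all lie closest to the library of their own cultivar. Over the 1199 well expressed unigenes the median absolute log2 difference was 0.12 between CC1 and KC2, 0.18 between CC1 and CC2 and 0.22 between KC1 and KC2, while the other crossed pair, CC2 and KC1, was farther apart at 0.24. A unigene that the study names, c70415_g4 (NFYB7), was above 0 in only part of the libraries. It had 4.984 and 5.085 in CT, 4.465 in CC1 and 4.498 in KC2, and 0 in CC2, KC1, KT1 and KT2. With CC2 and KC2 exchanged, its values above 0 would all lie in CB-1. This is a single unigene, and whether the labels of CC2 and KC2 are correct was not tested. The rule for stable unigenes uses no labels and is untouched by such an exchange. The median changes, the counts of libraries apart and the DEG counts are also given with CC2 and KC2 exchanged.

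The steadiest unigene was c86138_g3. Its log2 values were 5.88 and 6.02 in CT, 6.05 and 6.07 in CC, 5.93 and 5.91 in KT, and 5.96 and 6.06 in KC. The range was 0.18, with both cold groups slightly under their controls and CT1 the lowest library. The second was c81717_g1, near the floor, with 5.08 and 5.23 in CT, 5.11 and 5.09 in CC, 5.27 and 5.18 in KT, and 5.12 and 5.12 in KC. Its range of 0.19 was set by KT1 at the top and CT1 at the bottom. In linear abundance, c83338_g1 varied least of all 129, with a coefficient of variation of 4.06% over the 8 libraries. Its log2 values were 5.68 and 5.73 in CT, 5.71 and 5.62 in CC, 5.81 and 5.76 in KT, and 5.74 and 5.74 in KC. Cold and control values overlapped in CB-1, and in K326 both cold values lay above both control values, at a mean difference of 0.04. The next 3 by range were c75764_g1 (0.23), c80620_g1 (0.23) and c62405_g1 (0.23), with mean levels of 6.27, 5.83 and 6.18.

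**Figure D1:**
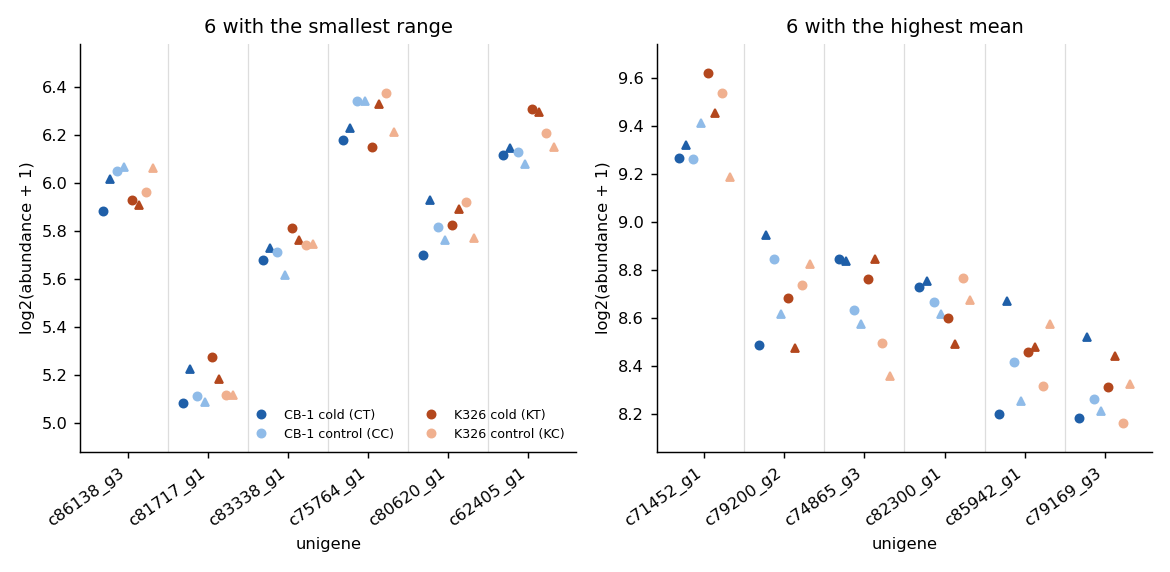
Deposited log2(abundance + 1) in each of the 8 libraries for the 6 stable unigenes with the smallest range (left) and the 6 with the highest mean (right), with circles for replicate 1 and triangles for replicate 2 of each group. The 6 on the left have ranges from 0.18 to 0.23, and the 6 on the right have ranges from 0.28 to 0.49.

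The most abundant stable unigene was c71452_g1, with a mean log2 value of 9.38. It had 9.27 and 9.32 in CT, 9.27 and 9.42 in CC, 9.62 and 9.45 in KT, and 9.54 and 9.19 in KC. The K326 control libraries alone spanned 0.35, more than any difference between its group means. Of the 6 most abundant, c82300_g1 had the narrowest range. It had 8.73 and 8.76 in CT, 8.67 and 8.62 in CC, 8.60 and 8.49 in KT, and 8.77 and 8.68 in KC. The range was 0.28, and the cold values lay above the controls in CB-1 and under them in K326. The other 4 of the top 6, c79200_g2, c74865_g3, c85942_g1 and c79169_g3, had mean values of 8.70, 8.67, 8.42 and 8.30 and ranges of 0.47, 0.49, 0.47 and 0.36.

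Over all 129 the range lay between 0.181 and 0.499 with a median of 0.413, and the mean level between 5.15 and 9.38 with a median of 6.04. Among the 1199 well expressed unigenes the median range was 0.93, the widest range 5.76, and the median mean level 6.48. The coefficient of variation of the linear values of stable unigenes was 4.06% to 14.1%. Stable unigenes were a larger share of the well expressed unigenes near the floor: 63 of 346 (18.2%) at a mean level between 5 and 6, 37 of 434 (8.53%) between 6 and 7, 17 of 244 (6.97%) between 7 and 8, and 12 of 175 (6.86%) at 8 or above. The levels and the ranges come from the same libraries, so this order is a description of the set. A unigene with a mean level just above 5 meets the floor in all 8 libraries only if it varies little. The floor itself therefore raises the share at the lowest level.

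**Figure D2:**
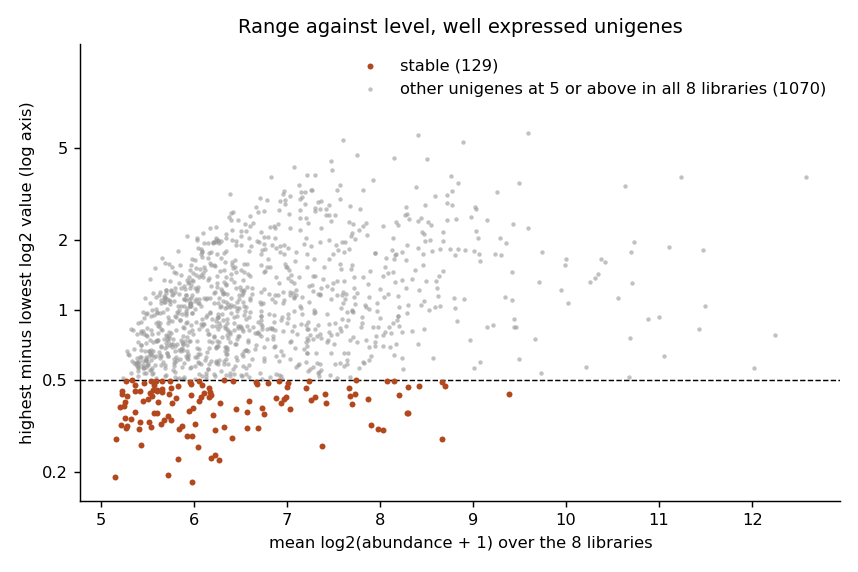
Range over the 8 libraries (highest minus lowest log2 value, log axis) against the mean log2 value of each of the 1199 unigenes at 5 or above in all libraries, with the 129 stable ones in color. Stable unigenes lie at 0.5 or under by the rule, and the median range of all 1199 is 0.93.

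Both limits fell in dense regions of the data. Just inside the range limit stood c67914_g1 (0.496) and c86138_g1 (0.499), and just outside it c84380_g1 and c68121_g1 (both 0.502). Just inside the floor stood c68777_g1 and c74769_g1, whose lowest values were 5.013 and 5.020. The lowest values of c84347_g1 (4.981) and c81745_g1 (4.962) kept these unigenes out, although their ranges were 0.39 and 0.26. With the floor at 4 the count was 252 and with the floor at 6 it was 56. With the range limit at 0.4 it was 59 and at 0.6 it was 255. A narrow range is also not rare at lower levels, since of the 12255 unigenes at 1 or above in all 8 libraries 1082 had a range of at most 0.5.

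The mean difference between cold and control libraries was small in the stable unigenes, as the rule requires. In CB-1 its median was 0.03 on the log2 scale (lowest −0.30, highest 0.36), with 74 unigenes above 0 and 55 below. In K326 the median was −0.10 (lowest −0.42, highest 0.38), with 39 above 0 and 90 below. The medians of the 1199 well expressed unigenes were −0.16 in CB-1 and −0.38 in K326. Those of all unigenes tested, that is those reaching a value of 1 in 2 or more libraries of the cultivar, were −0.22 in CB-1 (25333 unigenes) and −0.33 in K326 (25779 unigenes). The stable unigenes had higher medians than these in both cultivars, an order that follows from the rule, which holds their differences near 0. With CC2 and KC2 exchanged, their median difference was −0.04 in CB-1, on the other side of 0, and −0.04 in K326.

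Cold and control libraries did not overlap in part of the stable unigenes, a smaller share than over all unigenes tested in either cultivar. In CB-1 both cold libraries lay above both control libraries in 25 stable unigenes and below them in 23, together 37.2%. Over all unigenes tested in CB-1 this arrangement was found in 78.0%, with cold above in 32.4% and below in 45.6%. In K326 they lay above in 18 and below in 58, together 58.9%. Over all unigenes tested in K326 it was found in 79.5%, with cold above in 29.5% and below in 49.9%. The rule used these libraries, so the shares describe the set only. In 7 of the 129 stable unigenes (5.43%) cold lay above control in both cultivars, and in 14 (10.9%) it lay below in both. In 8 of the 129 the directions were opposite, and in 34 (26.4%) the libraries overlapped in both. Among the 22336 unigenes tested in both cultivars, 24.2% lay above in both, 42.6% below in both and 1.58% in opposite directions, and 9.32% overlapped in both. An exchange of CC2 and KC2 was added as an alternative after the values were seen. With it, 46 stable unigenes (35.7%) were apart in CB-1 and 62 (48.1%) in K326, against 80.7% and 78.0% of all unigenes tested. After the exchange 6 stable unigenes (4.65%) lay above in both, 17 (13.2%) below in both and 3 in opposite directions. Of the 22336 tested in both, 24.7% then lay above in both, 44.3% below in both and 340 unigenes in opposite directions.

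Among those above in both, c74865_g3 had the largest mean difference. Its values were 8.85 and 8.84 in CT against 8.64 and 8.58 in CC, and 8.77 and 8.85 in KT against 8.50 and 8.36 in KC. These are differences of 0.24 in CB-1 and 0.38 in K326. Those of c68224_g2 were 0.30 and 0.29, and those of c78419_g1 were 0.30 and 0.27. On the other side, c58513_g1 had 6.54 and 6.56 in CT against 6.80 and 6.74 in CC, and 6.48 and 6.50 in KT against 6.85 and 6.96 in KC. The differences were −0.22 in CB-1 and −0.42 in K326, which came close to the full width that the rule allows. They were −0.29 and −0.34 in c70079_g1, and −0.25 and −0.33 in c61754_g1.

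Whether these unigenes count as unmoved depends on the scaling of the libraries. The deposited values were used as they are, and the sources used here do not state how they were scaled. When each library was instead scaled by its median ratio to the average library, as count-based methods do, the median change of all unigenes tested moved to 0.04 (CB-1) and 0.01 (K326). The median change of the stable unigenes moved to 0.36 (CB-1) and 0.35 (K326). Both cold libraries then lay above both control libraries in 110 of the 129 in CB-1 and in 119 in K326, and below them in 0 in either cultivar. Over all unigenes tested, this scaling put both cold libraries above both controls in 40.0% in CB-1 and 38.6% in K326. It put them below in 36.9% and 38.2%. The scaling factors, by which each library was divided, were on the log2 scale 0.11 to 0.31 in the control libraries and −0.28 to −0.08 in the cold ones. All unigenes of a library were shifted nearly alike. For unigenes held within 0.5, cold above control is thus largely fixed by the scaling, and the counts of 110 and 119 describe that shift. Under this scaling 241 unigenes met the rule, and 29 of them were among the 129. With quantile normalization, which gives all libraries the same distribution, 143 met the rule, 101 of them among the 129, and the median changes of the 129 were 0.01 and −0.08.

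**Figure D3:**
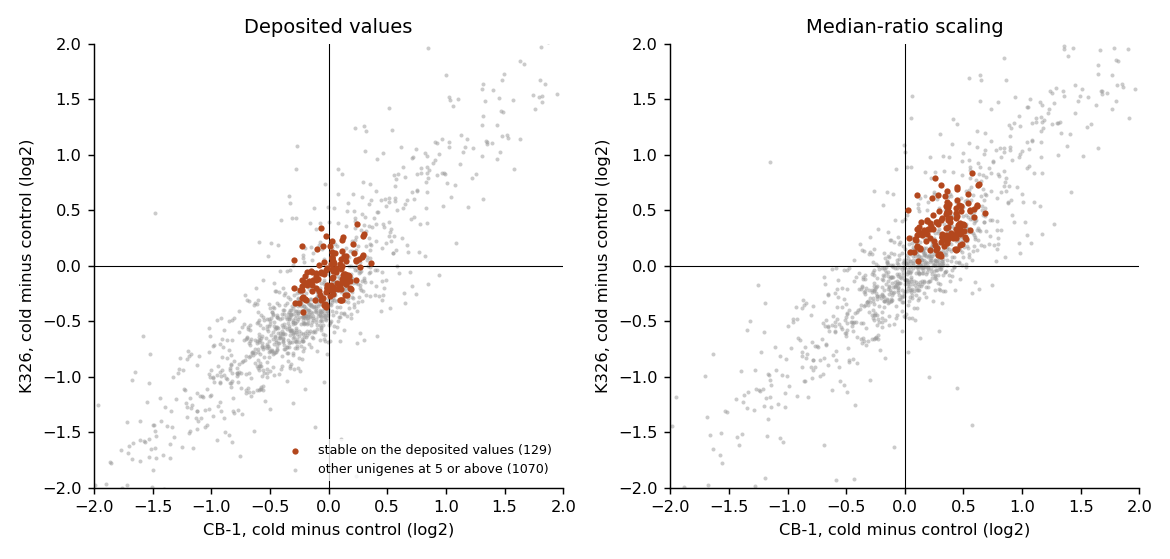
Mean cold minus mean control log2 value in K326 against that in CB-1 for the 129 stable unigenes (color) and the 1070 other well expressed unigenes (gray), from the deposited values (left) and after median-ratio scaling (right); unigenes past 2 in size, 77 on the left and 76 on the right, are outside the axes. The stable unigenes lie around 0 on the left and around 0.36 and 0.35 on the right.

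In all, 20 unigenes met the rule under all 3 scalings. The 2 most abundant of them, named after their values were seen, were c81082_g1 with a mean of 8.03 and c77000_g1 with a mean of 7.98. Their ranges on the deposited values were 0.30 and 0.31, after median-ratio scaling 0.38 and 0.42, and after quantile normalization 0.26 and 0.22. Of the 6 steadiest unigenes on the deposited values, c75764_g1 was among these 20. So was c58513_g1, which lay below control in the cold in both cultivars on the deposited values and whose range narrowed to 0.24 after median-ratio scaling.

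A reading that the choice did not fix is had by choosing unigenes in one cultivar and reading them in the other. In the 4 CB-1 libraries alone, 435 unigenes had a value of at least 5 and a range of at most 0.5. Read in K326, 3 of these 435 (0.69%) were differentially expressed genes (DEGs) after cold treatment, 2 that rose and 1 that fell. Of all 25779 unigenes tested in K326, 40.3% were DEGs, 17.4% that rose and 22.9% that fell. To count as a DEG, a unigene needed a log2 fold change of more than 1 in size and an adjusted p-value below 0.05 from limma, a linear model that shares the variance estimate among unigenes, with p-values adjusted by Benjamini-Hochberg over every unigene tested in that cultivar. Of the 895 unigenes that also met the floor in CB-1 but lay outside the range limit, 270 (30.2%) were DEGs in K326. These 895 were not matched to the 435 on level. The median absolute change in K326 was 0.32 in the 435, 0.78 in the 895 and 0.93 in all unigenes tested. Of the 435, 188 (43.2%) also had a range of at most 0.5 over the 4 K326 libraries. The signed median change of the 435 in K326 was −0.29, and that of all unigenes tested was −0.33.

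In the reverse direction, 303 unigenes were stable in the 4 K326 libraries. Read in CB-1, 3 of them (0.99%) were DEGs, and all 3 fell. Of all 25333 unigenes tested in CB-1, 40.0% were DEGs, 18.8% that rose and 21.1% that fell. Among the 1002 unigenes that also met the floor in K326 but lay outside the range limit, not matched on level, 238 (23.8%) were DEGs in CB-1. The median absolute change in CB-1 was 0.19 in the 303, 0.53 in the 1002 and 0.90 in all unigenes tested. The signed median change of the 303 in CB-1 was 0.03, and that of all unigenes tested was −0.22. A range of at most 0.5 over the CB-1 libraries was found in 189 of the 303 (62.4%). When CC2 and KC2 were exchanged, the DEGs among the chosen unigenes numbered 1 of 421 in K326 and 4 of 346 in CB-1. Of all unigenes tested, 41.0% in K326 and 41.3% in CB-1 were then DEGs. Of all unigenes meeting the floor in the other cultivar, stable or not, 21.4% in K326 and 19.3% in CB-1 were.

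**Figure D4:**
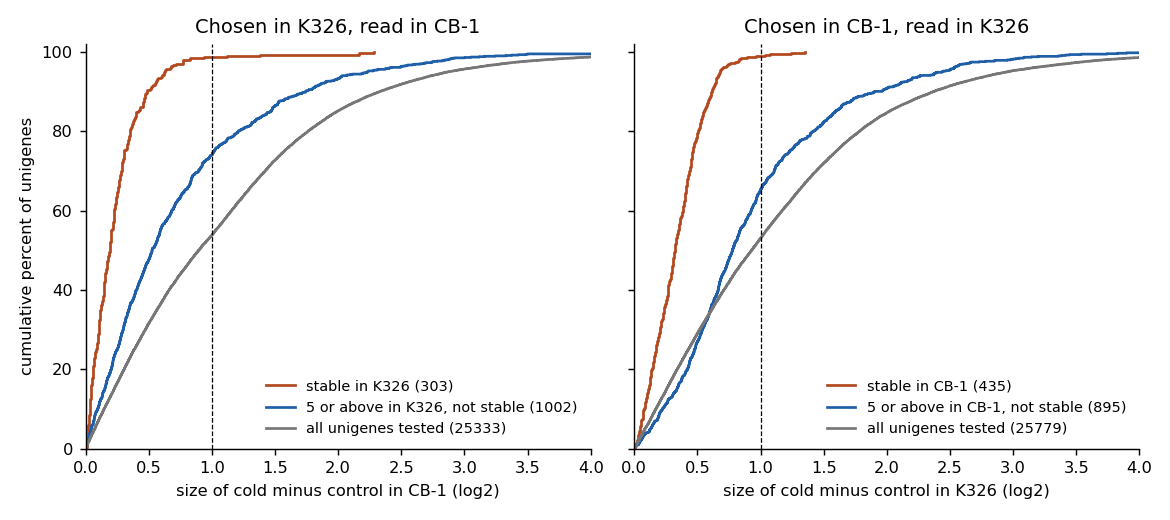
Cumulative share of unigenes by absolute log2 change between cold and control, read in CB-1 for unigenes chosen in K326 (left) and in K326 for unigenes chosen in CB-1 (right). Separate lines show the chosen stable unigenes, unigenes at the same floor but outside the range limit, and all unigenes tested, with a dashed line at a change of 1. Median absolute changes of the chosen unigenes are 0.19 in CB-1 and 0.32 in K326, against 0.90 and 0.93 for all unigenes tested.

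The 6 exceptions are named here after their values were seen. Of the unigenes stable in K326, c67819_g1, described as a class I small heat shock protein (a chaperone that binds unfolding proteins), fell in CB-1. Its values were 3.62 and 4.24 in CT against 5.98 and 6.20 in CC, while KT had 6.23 and 6.07 and KC 6.34 and 6.04. The log2 fold change in CB-1 was −2.16 with a standard error of 0.27 (limma, Benjamini-Hochberg adjusted p = 0.0079). A unigene without a description, c99328_g1, had a like profile, with 3.37 and 4.22 in CT against 6.05 and 6.10 in CC and a fold change of −2.28 on the log2 scale (limma, standard error 0.33, adjusted p = 0.0109). A smaller fall in CB-1, of −1.12 on the log2 scale, was found for c82197_g1 (adjusted p = 0.0452, limma).

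Of the unigenes stable in CB-1, c86601_g1 and c75827_g7 rose in K326 and c55058_g2 fell. For c86601_g1 the values were 6.54 and 6.31 in KT against 5.34 and 5.03 in KC, while CT had 5.61 and 5.35 and CC 5.33 and 5.18. In K326 the log2 fold change of this unigene was 1.24, at a standard error of 0.19 (limma, Benjamini-Hochberg adjusted p = 0.0139). Those of c75827_g7 and c55058_g2 were 1.03 (adjusted p = 0.0247, limma) and −1.35 (adjusted p = 0.0200, limma). With CC2 and KC2 exchanged, c86601_g1, c75827_g7 and c55058_g2 were outside the range limit in CB-1 and so no longer among the chosen unigenes. The 1 DEG then found among the chosen unigenes in K326 was another unigene. The exchange also put c82197_g1 outside the limit in K326, while c67819_g1 and c99328_g1 stayed inside it. The difference between the cultivars was not tested for these 6 unigenes. Their number rests on few libraries: without KC2 or without KT1 0 of the 435 were called in K326, with 14 and 24 of them at an unadjusted p under 0.05, and without CC2 1 of the 303 was called in CB-1. Without KT1, limma also called 0 of all 21930 unigenes tested, with 8855 at an unadjusted p under 0.05.

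The libraries can also be split by replicate number, with 1 library of each group on each side. Of 288 unigenes stable in the 4 replicate 1 libraries, 172 were stable in the replicate 2 libraries (59.7%, exact binomial 95% interval 53.8% to 65.4%). Of the 987 other unigenes at 5 or above in the replicate 1 libraries, 219 (22.2%) were. In the reverse direction, 172 of 443 (38.8%, interval 34.3% to 43.5%) were stable in replicate 1, against 94 of 929 others (10.1%). The intervals treat unigenes as independent, which unigenes of the same libraries are not.

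Among the 8 libraries, the stable unigenes were lowest in CT1 and highest in KC1 more often than elsewhere. The median deviation from a unigene's own mean was −0.07 in CT1 and 0.09 in CT2, 0.02 in CC1 and −0.08 in CC2, −0.07 in KT1 and −0.02 in KT2, and 0.07 in KC1 and 0.06 in KC2. The CB-1 cold libraries thus lay on opposite sides of 0. CT1 held the lowest value of 35 unigenes and CC2 that of 28, while KC1 held the highest value of 30, KC2 of 28 and CT2 of 27. The median gap between replicates was 0.20 in CT, 0.09 in CC, 0.11 in KT and 0.12 in KC, and in the 1199 well expressed unigenes it was 0.31, 0.18, 0.21 and 0.22. Of the 28 pairs of libraries, CC1 and KC2 were closest in the stable unigenes, with a median absolute difference of 0.084, and CT1 and CT2 were farthest apart.

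**Figure D5:**
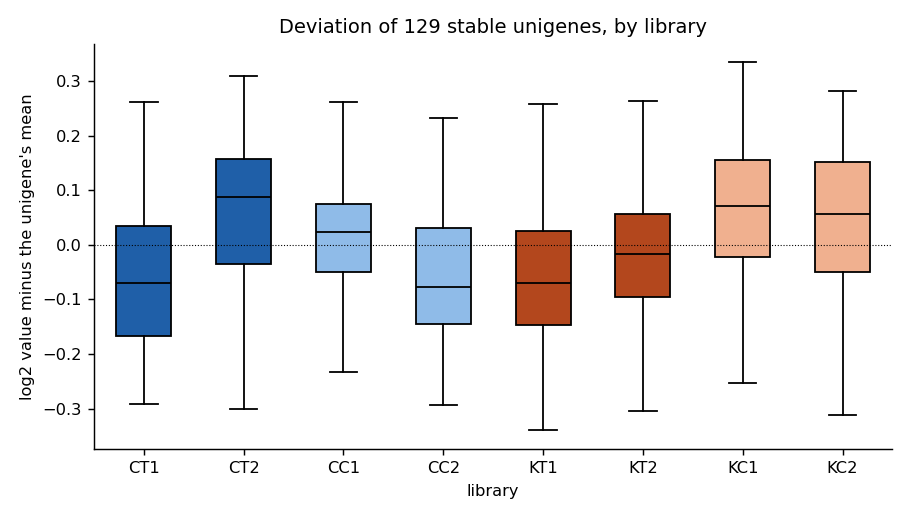
Deviation of each of the 129 stable unigenes from its own mean over the 8 libraries (log2), one box per library in the order CT, CC, KT, KC, with the line at the median, the box at the quartiles and the whiskers at the lowest and highest unigene. Medians run from −0.08 (CC2) to 0.09 (CT2), and the CB-1 cold libraries CT1 and CT2 lie on opposite sides of 0.

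A constant unigene can be one of several pieces of a gene or one of several near-identical copies. Tobacco is an allotetraploid that carries related gene copies from both parents, and the assembler places similar sequences in one component. RSEM divides reads that fit several units among them, so the level of a unigene with component mates is uncertain. Of the 129, 89 (69.0%) were the only unigene of their component, against 65.3% of the other well expressed unigenes. The remaining 40 had mates, and for 31 of the 40 the summed abundance of the whole component also stayed within 0.5 on the log2 scale. In 13 the stable unigene held at least 90% of the component's signal, and in 14 it held less than 50%.

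In 5 components 2 unigenes were stable. The pair of c75764 summed to a range of 0.16, narrower than the 0.23 of c75764_g1 and the 0.45 of c75764_g2 alone. Here c75764_g1 had 6.18 and 6.23 in CT, 6.34 and 6.34 in CC, 6.15 and 6.33 in KT, and 6.37 and 6.21 in KC. Its mate c75764_g2 had 5.57 and 5.54 in CT, 5.48 and 5.49 in CC, 5.38 and 5.12 in KT, and 5.38 and 5.43 in KC. In CB-1 the mates differed in opposite directions between cold and control, by −0.14 and 0.07. The component of c86138_g3, the steadiest unigene, holds the stable c86138_g1 as well, and its sum had a range of 0.19. The widest component sum belonged to c75812_g1, which was itself stable at a range of 0.49 while its component spanned 1.01.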

How the data were processed

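Leaf RNA of CB-1 and K326 was sequenced in 8 libraries, 2 in each of 4 groups taken from the sample labels. The authors assembled the reads into unigenes with Trinity, mapped them with bowtie, estimated abundances with RSEM and deposited log2(abundance + 1) for 135146 unigenes. The scaling behind the abundance and all versions are not given in the sources used here. Without counts the depth per value is unknown, so no counting interval was given and no count test was run.

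Stable unigenes were found by the rule given above. Cold was compared with control within each cultivar by limma 3.58.1 (R 4.3.3; variance trend and moderation, Benjamini-Hochberg adjustment) on unigenes reaching a value of 1 in 2 or more of the 4 libraries, and DEGs required a log2 fold change of more than 1 in size at an adjusted p below 0.05. Each cultivar was fitted alone, so that libraries used to choose unigenes stayed out of the test. In simulated tables with 200 unigenes changed by 2 log2 units, 82.5% (CB-1) and 70.0% (K326) were recovered, with 11 and 4 false calls. With 8444 and 8593 changed by that size, 98.3% and 96.7% were recovered, with 247 and 245 false calls. The simulated noise was normal, with a variance smoothed over unigenes of similar mean level. Such tables follow the variance trend that limma assumes, so these shares may not hold for the real values. Other calculations used Python 3.11.15 with pandas 2.3.3, numpy 2.4.6 and scipy 1.17.1.

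Named unigenes were the 6 with the smallest range, the 6 with the highest mean, the 2 on each side of each limit, the 3 largest differences each way among those apart in both cultivars, and named or annotated unigenes nearest the rule. Members, lists and rules were chosen with earlier results of these data known. Alternatives were other scalings, limits, filters and pseudocounts, an unmoderated test, a joint fit, a replicate block, exchanged control libraries and leaving out each library. The authors' annotation sheet was used for IDs and descriptions of 1999 unigenes, and no values were taken from it. Unigene sequences were not used here.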

Additional observations from a re-analysis of the deposited data

Results flagged for a closer look

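In 8 of the 129 stable unigenes cold and control libraries were apart in both cultivars, but in opposite directions. Over all unigenes tested in both cultivars, this arrangement was found in 352 of 22336 (1.58%). With CC2 and KC2 exchanged, 3 of the 129 had it, beside 340 of the 22336. Cold lay above control in CB-1 and below it in K326 in 7 of the 8 (c58789_g1, c63804_g1, c64740_g1, c65228_g1, c66126_g1, c79806_g1 and c82300_g1), and the reverse held for c85212_g2. For c66126_g1 the values were 5.58 and 5.64 in CT against 5.44 and 5.40 in CC, and 5.52 and 5.39 in KT against 5.63 and 5.70 in KC. For c85212_g2 they were 7.13 and 7.15 in CT against 7.47 and 7.26 in CC, and 7.37 and 7.34 in KT against 7.07 and 7.28 in KC. The change in K326 minus that in CB-1 was between −0.40 and −0.27 in the 7 and 0.41 in c85212_g2. These unigenes were chosen for a narrow range over the same libraries, and the difference between the cultivars was not tested. After median-ratio scaling 0 of the stable unigenes lay below control in the cold in either cultivar, so none had opposite directions on that scale.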

How the results depend on the processing

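The number of stable unigenes, 129 on the deposited values, was 241 after median-ratio scaling, 252 and 56 with the floor at 4 and 6, 59 and 255 with the range limit at 0.4 and 0.6, and 443 when the range was taken over the 4 group means. Leaving out 1 library gave 133 to 216. Their median cold change was 0.36 (CB-1) and 0.35 (K326) after median-ratio scaling and −0.041 (CB-1) and −0.0385 (K326) with CC2 and KC2 exchanged, and it was −0.054 to 0.082 in CB-1 and −0.165 to −0.0975 in K326 with 1 library left out. After median-ratio scaling, 76.9% (CB-1) and 76.8% (K326) of all unigenes tested had cold and control apart. Stable unigenes with cold and control apart then numbered 110 (85.3%) in CB-1 and 119 (92.2%) in K326. With 1 library left out they numbered 60 to 169 and 78 to 167, but the set was then chosen anew, and in the cultivar that lost a library 1 was set against 2, an arrangement that is more easily apart. In the cultivar that kept all 4 libraries the share apart was 35.2% to 40.8% in CB-1 and 58.6% to 59.6% in K326. DEGs among all unigenes tested, 10121 in CB-1 and 10387 in K326, numbered 4074 and 4011 without a filter, 3457 and 3779 with a value of at least 1 in all 4 libraries, 2910 and 2663 without moderation, and 2016 to 6724 and 0 to 4333 with 1 library left out. CB-1 DEGs among the unigenes stable in K326 numbered 6 of 529 after median-ratio scaling, beside 38.1% of all unigenes tested. They numbered 1 of 303 without a filter (5.25% of all), 0 of 303 without moderation (11.5%) and 1 of 141 with the floor at 6 (40.0%). Of all unigenes meeting the floor in K326, stable or not, 18.5% were CB-1 DEGs in the main run. In these settings, in the order given, that share was 16.0%, 8.35%, 4.21% and 19.5%. K326 DEGs among the unigenes stable in CB-1 numbered 0 of 438 after median-ratio scaling (37.2% of all unigenes tested) and 5 of 445 after quantile normalization (39.0%). They numbered 0 of 435 without a filter (5.28% of all), 0 of 435 without moderation (10.3%) and 1 of 421 with CC2 and KC2 exchanged (41.0%). With the floor at 6 they numbered 0 of 190, and 0 of 255 with the range limit at 0.4 (both 40.3%). The counts in both cultivars also fell in some runs with 1 library left out. Where 0 were called, the chosen unigenes with an unadjusted p under 0.05 were counted. The unmoderated test gave 22 of 303 (CB-1) and 96 of 435 (K326), beside 10810 of 25333 and 11510 of 25779 unigenes tested. In K326, limma gave 41 of 438 after median-ratio scaling and 80 of 435 without a filter, beside 13753 of 25117 and 19535 of 75904. It gave 28 of 190 with the floor at 6 and 44 of 255 with the range limit at 0.4, beside 15200 of 25779. The share stable in replicate 2 was 66.6% after median-ratio scaling and 44.3% and 72.4% with the range limit at 0.4 and 0.6, and the share stable in replicate 1 was 54.6%, 31.0% and 51.3%.

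With the replicate number as a block, 10636 DEGs were found in CB-1 and 10531 in K326, with 4 of the 303 and 3 of the 435 chosen unigenes among them. Whether the replicate numbers pair the libraries is not given by the labels. The difference between replicates in cold and that in control correlated at −0.043 over 25333 unigenes in CB-1 and 0.010 over 25779 in K326. These are unigenes of the same libraries with a single replicate difference per group, so a pairing by design cannot be told from them. Under these alternatives 72 values of these results, some of them given above, stayed close to the main value. Close means within 1.5 times the count or within the spread between replicates. For the shares stable in the other replicate it means inside the exact binomial interval, which takes unigenes of the same libraries as independent and is only a yardstick here. The causes of these movements were not tested. A unigene with a mean level near 5 or a range near 0.5 enters or leaves the set with small changes of the values.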
